A study of Homo sapiens with 4 samples.

Results

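The genes described here encode the heat shock proteins of the HSP70, HSP110, HSP90 and small heat shock families, the J-domain and other co-chaperones that work with them, and the chaperonins. They were chosen by symbol alone: every gene whose symbol begins with HSPA, HSPB, HSP90A, HSPH, DNAJA, DNAJB or DNAJC, plus HSPD1, HSPE1, AHSA1, STIP1, BAG3, CHORDC1, CRYAB, TCP1 and CCT2 to CCT8 with both CCT6 genes, and without HSPA5, DNAJB9 and DNAJC3 of the endoplasmic reticulum. The rule found 85 of the 19468 genes that could be named in the authors' deposited table, through 96 transcript accessions. Of these, 65 genes were linked to an array probe, and 43 had a probe above background on at least 2 arrays and were tested. A further 22 were linked but not tested, 21 of them above background on 0 arrays, and 20 had no linked probe. The prefixes also took in HSPBAP1 and HSPBP1, which are no small heat shock proteins, the pseudogene HSPA7 and the read-through locus DNAJC25-GNG10.

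The cells were MDA-LM2, an established line selected from the human breast cancer line MDA-MB-231 for metastasis to lung. In one group they received by lipofection a capped RNA with a poly(A) tail and tandem sRSE elements (the sRSE decoy), and in the other an RNA of scrambled sequence (scrambled RNA), and total RNA was taken after 48 h. Each group has 2 samples, each read on 1 Illumina expression beadchip with 47323 probes. The labels do not say whether the samples of a group were separate cultures, so the p-values rest on a spread that may be technical only, and the number of arrays limits the precision. The comparison asks which transcripts differ when added copies of the element can hold the factor that binds it.

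Chaperones of the HSP70 family bind stretches of unfolded protein in a cycle driven by ATP. J-domain proteins (DNAJ) bring clients to HSP70 and start ATP hydrolysis, nucleotide exchange factors such as HSP110 and the BAG proteins end the cycle, and STIP1 passes clients on to HSP90, whose ATPase AHSA1 stimulates. Small heat shock proteins hold unfolded protein without ATP, and the ring-shaped chaperonins, TRiC (CCT) in the cytosol and HSPD1 with HSPE1 in mitochondria, enclose it. Many of these genes are switched on by the transcription factor HSF1 under heat or other protein damage, and tumour cells commonly keep them at high levels.

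Raw signals had a median of 83.9 and 81.3 with the decoy, against 77.5 and 76.3 with scrambled RNA. Their upper quartile stood at 208 and 193 with the decoy, against 166 and 157 with scrambled RNA. Between 13402 and 13849 probes per array were above background (detection p under 0.01). Values given below are log2 signals after background correction and quantile normalization, which gives the arrays 1 common distribution, unless a raw signal is named. Log2 signals correlated at r = 0.996 between the decoy arrays, r = 0.995 between the scrambled RNA arrays and r = 0.974 to 0.975 across groups (Pearson, over genes, which are not independent replicates). Of markers of the line, CD44, MSN and LGALS1 were above background on all 4 arrays and VIM, CAV1 and AXL had no linked probe. The luminal genes ESR1, PGR, GATA3, CDH1, ERBB3 and FOXA1 were all above background on 0 arrays, as were PTPRC, CD3E, DCN, COL1A1 and PDGFRB of leukocytes and fibroblasts (LUM had no linked probe), whereas the leukocyte marker CD14 was above background on 4 arrays.

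Chaperone genes moved in both directions with the decoy. Of the 43 tested, 10 were higher, 12 were lower and 21 did not pass an adjusted p of 0.05 (limma, Benjamini-Hochberg over all 6480 genes tested). That is 51.2% called, beside 44.5% of all genes, of which 21.2% were called higher and 23.3% lower, so the share of chaperone genes called lay near that of all genes. Their median log2 difference was 0.074, beside -0.031 for all genes, with a range of -0.81 to 0.89, and their median absolute difference was 0.27, beside 0.24. The groups did not overlap in 40 of the 43 (75.5% of all genes). In total RNA from a culture, fewer cells with a transcript and less of it per cell cannot be told apart. The 12 lower include HSPB8, which entered the test only through the scrambled RNA arrays. They also include HSPBAP1, above background on 2 scrambled RNA arrays and 1 decoy array. Of the 40 chaperone genes above background on all 4 arrays, 10 were higher, 10 lower and 20 did not pass. The calls were fewer with 1 array left out: 10 genes passed without sRSE decoy replicate 1, 12 without sRSE decoy replicate 2, 17 without scrambled RNA replicate 1 and 21 without scrambled RNA replicate 2.

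**Figure D1:**
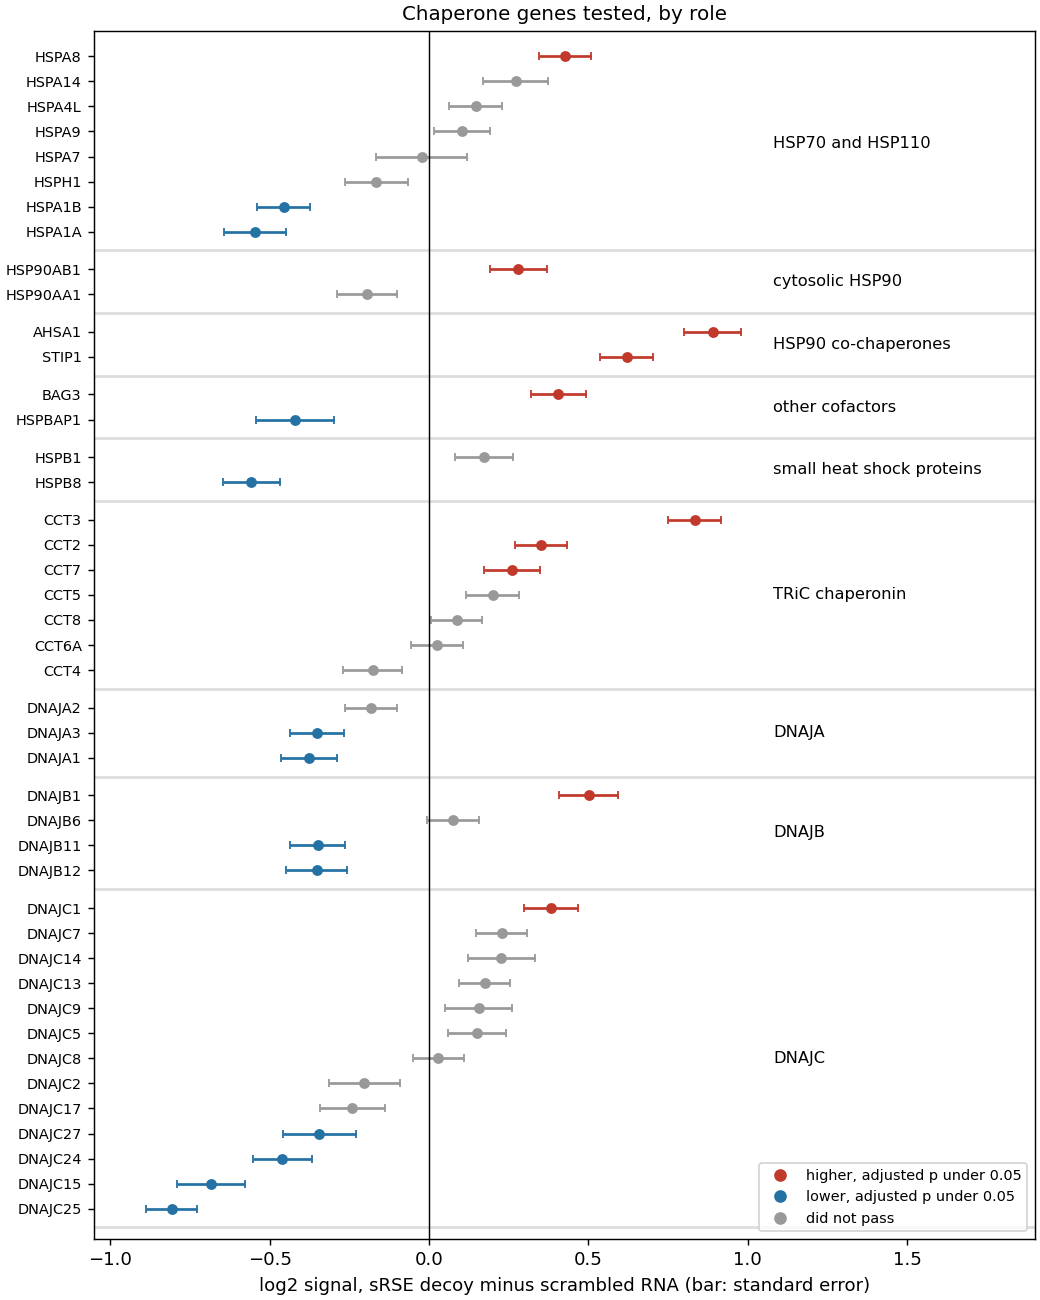
Difference in log2 signal (sRSE decoy minus scrambled RNA, horizontal axis) of each of the 43 chaperone genes tested, grouped by role, with bars of 1 standard error (n = 2 arrays a group). The HSP90 co-chaperones AHSA1 and STIP1 and the TRiC subunit CCT3 lie farthest to the right, and the J-domain genes DNAJC25 and DNAJC15 farthest to the left.

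A match to the heat shock element, the repeat that HSF1 binds, was looked for in the promoter windows of RefSeq (GRCh38.p14, 250 bases before to 50 after each start site). The motif searched was 3 units that alternate between GAA and its reverse complement TTC, each set off from the next by 2 free bases, with no mismatch and on both strands; matches may overlap. They stood in the window of 8 of 87 genes that meet the symbol rule (9.2%) and of 166 of all 27305 genes (0.608%). Among the 38 chaperone genes that were tested and have a window, 5 held a match: HSPA8 and HSP90AB1, called higher, DNAJA1, called lower, and HSP90AA1 and DNAJB6, which did not pass. A match is a description of the letters, not of binding, and units with a mismatch were not counted. The windows of the HSP90 pair and of HSPA8 are shown because these are the HSP70 and HSP90 genes with a match that are described next, with the matching letters in capitals, 5′ to 3′ on the strand of the gene.
HSPA8, chr11:123062154-123062216, minus strand: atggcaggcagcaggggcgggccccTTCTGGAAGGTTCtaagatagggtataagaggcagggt
HSP90AB1, chr6:44247753-44247815, plus strand: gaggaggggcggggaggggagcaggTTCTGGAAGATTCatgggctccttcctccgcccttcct
HSP90AB1, chr6:44247806-44247868, plus strand: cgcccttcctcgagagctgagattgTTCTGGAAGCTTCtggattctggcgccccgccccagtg
HSP90AA1, chr14:102087095-102087157, minus strand: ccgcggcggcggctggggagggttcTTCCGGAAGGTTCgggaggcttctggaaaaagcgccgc
The match of HSPA8 ends 42 bases before the start site, those of HSP90AB1 152 and 99 bases and that of HSP90AA1 75 bases before it. HSPA8 also holds a match that ends 217 bases before its start site, and the match of DNAJA1 lies past the start site and is not printed.

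Within the HSP70 family, the constitutive gene and the stress-induced pair differed in direction. HSPA8 (NM_006597), which encodes the constitutive cytosolic HSC70, read 14.05 and 13.996 with the decoy, against 13.57 and 13.62 with scrambled RNA. Both decoy arrays were higher, and the difference was 0.43 ± 0.08 on the log2 scale (SE, n = 2 arrays a group; limma adjusted p = 0.00568), or 1.34-fold. HSPA1A, the classical heat-induced HSP70, read 10.45 and 10.24 with the decoy, against 10.92 and 10.86 with scrambled RNA. HSPA1B, its neighbour on chromosome 6, read 12.03 and 12.13 with the decoy, against 12.55 and 12.52 with scrambled RNA. Every decoy array of both genes lay below every scrambled RNA array. HSPA1A fell by 0.55 on the log2 scale (SE 0.10; limma adjusted p = 0.00431; 1.46-fold lower) and HSPA1B fell by 0.46 (SE 0.08; limma adjusted p = 0.00484; 1.37-fold lower). The coding sequences of HSPA1A and HSPA1B are near-identical, so a probe may read both, and they may not be separate measurements.

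The other HSP70 and HSP110 genes did not pass. HSPA14, which works at the ribosome with the J-domain protein DNAJC2, had a difference of 0.27 ± 0.10 (limma adjusted p = 0.0625), HSPA4L, of the HSP110 group, 0.15 ± 0.08 (0.184) and HSPA9, the mitochondrial HSP70 mortalin, 0.10 ± 0.09 (0.36). HSPH1, the main stress-induced HSP110 and a nucleotide exchange factor, had -0.17 ± 0.10 (limma adjusted p = 0.202), and its decoy arrays, at 12.19 and 11.98, lay just below its scrambled RNA arrays, at 12.28 and 12.22. The pseudogene HSPA7 was above background on 1 array of each group, with a difference of -0.02 ± 0.14 and overlapping groups. The HSPA8 call ended without sRSE decoy replicate 1 (0.40, limma adjusted p = 0.0501), with median scaling (0.24, 0.138), when arrays were scaled over commonly detected probes (0.16, 0.133) and when both its probes were averaged (0.19, 0.0887). Under that scaling over commonly detected probes HSPH1 passed as lower (-0.36, limma adjusted p = 0.0167), and HSPA14 passed as higher in 7 of 14 alternatives, with limma adjusted p of 0.0483 for cyclic loess and 0.0344 for the authors' normalized intensities.

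Of the cytosolic HSP90 genes, the constitutive one was called higher and the other did not pass. HSP90AB1, the constitutive HSP90 beta, read 13.25 and 13.09 with the decoy, against 12.88 and 12.90 with scrambled RNA. Both decoy arrays were higher, and the difference of 0.28 ± 0.09 just passed (limma adjusted p = 0.0382; 1.21-fold). HSP90AA1, the more heat-inducible HSP90 alpha, read 13.98 and 14.11 with the decoy, against 14.17 and 14.31 with scrambled RNA, so that its decoy arrays lay below by a gap of 0.059. Its difference of -0.20 ± 0.09 did not pass (limma adjusted p = 0.126). The HSP90AB1 call ended without any 1 of the arrays, at 0.20 without sRSE decoy replicate 1 and 0.36 without sRSE decoy replicate 2. It stood at 0.27 without scrambled RNA replicate 1 and 0.29 without scrambled RNA replicate 2. Its call also ended without the detection filter (0.28, limma adjusted p = 0.0995) and without normalization between arrays (0.34, 0.0577). Median scaling (0.13) and scaling over commonly detected probes (0.049) ended it too. HSP90AA1 passed as lower under those scalings (-0.40 and -0.48). Another transcript of HSP90AA1, with no linked probe, stands at percentile 87.5 of the authors' deposited log ratios, where the linked one stands at 14.3.

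Of the HSP90 co-chaperones within the symbol rule, both that could be tested were higher with the decoy (21.2% of all genes were called higher). Outside the rule, 14 further HSP90 and HSP70 cofactors were tested, of which 2 were called higher and 2 lower. That is 28.6% called, beside 44.5% of all genes. Differences were negative in 11 of the 14 and positive in 3, beside 3447 and 3033 of all 6480 genes. The higher ones were BAG6 (1.10) and SGTA (0.36), and the lower ones SUGT1 (-0.41) and ST13 (-0.50). AHSA1 had the largest positive difference of the 43 genes. AHSA1, the activator of the HSP90 ATPase, read 11.24 and 11.40 with the decoy, against 10.40 and 10.46 with scrambled RNA. Its raw signals were 2719 and 2698 with the decoy, against 1393 and 1304 with scrambled RNA, so the groups lay far apart before any normalization too. The difference was 0.89 ± 0.09 (SE, n = 2 arrays a group; limma adjusted p = 0.000801), or 1.85-fold. STIP1, the adaptor that holds HSP70 and HSP90 together, read 11.85 and 11.81 with the decoy, against 11.17 and 11.25 with scrambled RNA. It was 1.54-fold higher (0.62 ± 0.08, limma adjusted p = 0.00164). Over all alternatives AHSA1 lay between 0.74 and 1.03 and STIP1 between 0.44 and 0.73, and neither lost its call. CHORDC1, a stress-induced HSP90 partner, had no linked probe, and the authors' deposited table lists it at -0.0142, a log ratio whose base is not stated and was inferred as 10, at percentile 3.4 of all accessions, where AHSA1 stands at percentile 99.7 and STIP1 at 98.7.

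**Figure D2:**
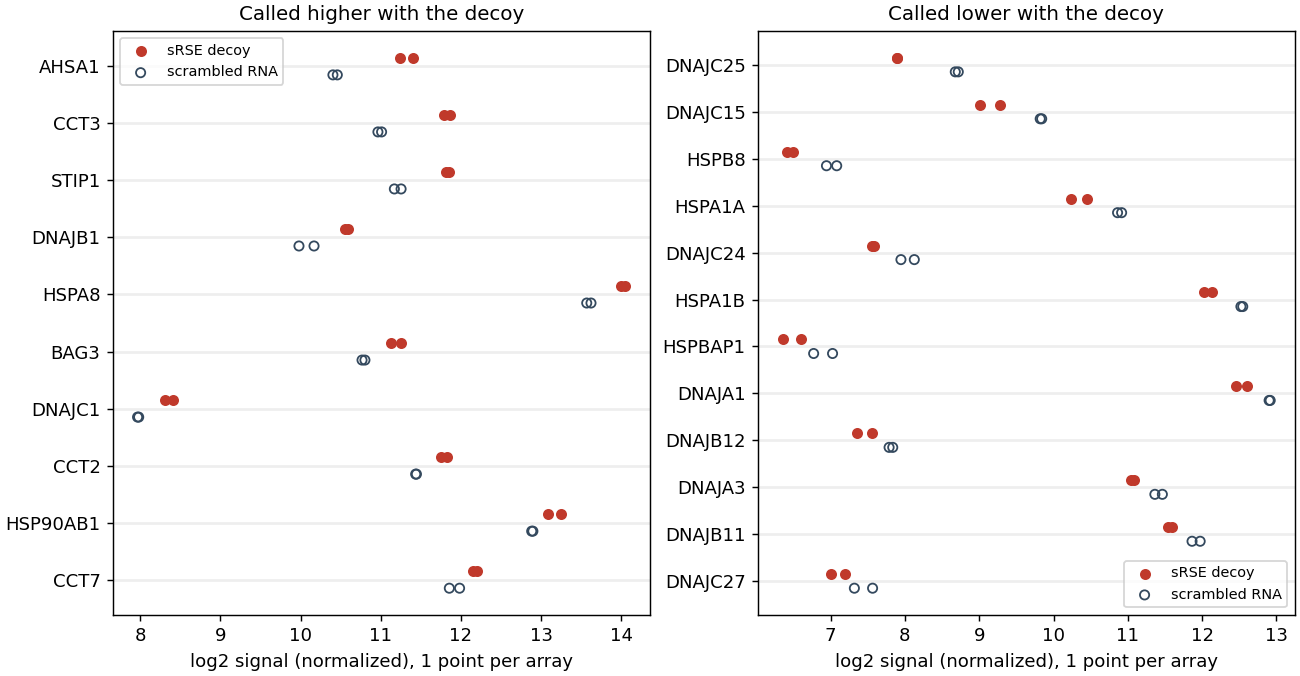
Log2 signal on each of the 4 arrays (horizontal axis, filled points sRSE decoy, open points scrambled RNA) of the 10 chaperone genes called higher (left) and the 12 called lower (right), ordered by the size of the difference. In each of the 22 genes the points of the groups do not overlap, and the gap runs from 0.79 in AHSA1 to 0.12 in DNAJC27. The 22 were called from these same values, and the groups did not overlap in 75.5% of all genes tested.

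Of the further HSP70 cofactors, BAG3 was higher with the decoy. BAG3, a nucleotide exchange factor that couples HSP70 to selective autophagy, read 11.13 and 11.25 with the decoy, against 10.77 and 10.80 with scrambled RNA, and was 1.32-fold higher (0.41 ± 0.09, limma adjusted p = 0.00832). HSPB8 read 6.49 and 6.42 with the decoy, against 7.08 and 6.94 with scrambled RNA, and was above background on 0 decoy arrays and on 2 scrambled RNA arrays, so its fold of at least 1.43 in the lower direction is a bound, set against the lowest signal above background on each decoy array. Because HSPB8 passed the filter only through the scrambled RNA arrays, its direction was favoured by that filter, and the value is a description with no test. Its raw signals overlapped, at 161.6 and 145.8 with the decoy, against 172.5 and 151.9 with scrambled RNA. HSPB1, the abundant HSP27, read 13.15 and 13.17 with the decoy, against 13.08 and 12.90 with scrambled RNA, a difference of 0.17 ± 0.09 that did not pass (limma adjusted p = 0.161).

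HSPBAP1, a protein that binds HSPB1, was called lower at -0.42 ± 0.12 (limma adjusted p = 0.0266), with 6.61 and 6.35 with the decoy, against 6.77 and 7.03 with scrambled RNA. It was above background on 1 decoy array and on 2 scrambled RNA arrays. The decoy arrays alone would not have met the filter of 2 arrays, so the filter may have favoured its direction. Its call ended without sRSE decoy replicate 1 (-0.55), sRSE decoy replicate 2 (-0.29) or scrambled RNA replicate 2 (-0.29), and under median scaling (-0.23). The call also ended without the detection filter (-0.42, limma adjusted p = 0.100) and under scaling over commonly detected probes (-0.31). The BAG3 call ended without sRSE decoy replicate 2 (0.34, limma adjusted p = 0.0686). The small heat shock genes HSPB2, HSPB3, HSPB6, HSPB7 and HSPB9 were linked but above background on 0 arrays, and CRYAB had several candidate probes and was not linked.

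The TRiC chaperonin, which folds actin and tubulin, had 7 of its subunit genes tested, of which 3 were called higher, 0 lower and 4 did not pass (limma). That is 42.9% called, beside 44.5% of all genes. CCT3 read 11.86 and 11.78 with the decoy, against 11.01 and 10.96 with scrambled RNA. Its decoy arrays lay well above, with a difference of 0.83 ± 0.08 (limma adjusted p = 0.00078; 1.78-fold). CCT2 read 11.83 and 11.75 with the decoy, against 11.44 and 11.44 with scrambled RNA (0.35 ± 0.08, limma adjusted p = 0.0118; 1.28-fold). CCT7 read 12.20 and 12.15 with the decoy, against 11.85 and 11.98 with scrambled RNA (0.26 ± 0.09, limma adjusted p = 0.0442; 1.2-fold). All 3 had decoy arrays above both scrambled RNA arrays. The subunits of 1 ring did not share 1 size of difference: CCT5 had 0.20 ± 0.08, CCT8 0.09 ± 0.08, CCT6A 0.03 ± 0.08 and CCT4 -0.18 ± 0.09, with limma adjusted p from 0.0862 to 0.809.

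The CCT2 and CCT7 calls were not firm. CCT2 lost its call without sRSE decoy replicate 1 (0.31) or 2 (0.39), and CCT7 lost its own without sRSE decoy replicate 1 (0.24) or 2 (0.28) or scrambled RNA replicate 1 (0.20). With median scaling CCT2 stood at 0.26 and CCT7 at 0.15 without passing. CCT8 and CCT6A turned to -0.04 and -0.07 there, and CCT5 passed at 0.36. Scaling over commonly detected probes left CCT2 at 0.18 and CCT7 at 0.07 without passing. It turned CCT8 and CCT6A to -0.12 and -0.15, and CCT5 passed at 0.27. CCT7 did not pass without the detection filter either (limma adjusted p = 0.106). TCP1, the subunit that names the complex, had no linked probe and stands in the authors' deposited table at -0.00327, percentile 26.7. The testis subunit CCT6B was above background on 0 arrays.

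Genes with a pair of detected probes gave different answers by probe. The second CCT3 probe, linked to NM_001008800, read 11.30 and 11.12 with the decoy, against 11.30 and 11.34 with scrambled RNA, a difference of -0.12 ± 0.10 (limma adjusted p = 0.364 over all 13889 probes tested), where the brighter probe had 0.83. For HSPA8 the second probe, linked to the transcript of a shorter isoform (NM_153201), read 13.62 and 13.69 with the decoy, against 13.65 and 13.74 with scrambled RNA, a difference of -0.04 ± 0.09 (limma adjusted p = 0.74). Both groups overlapped on that probe, while they were 0.37 apart on the brighter one. In CCT6A and DNAJB6 the dimmer probe was the one that passed. The dimmer CCT6A probe (NM_001762) had 0.35 ± 0.09 (limma adjusted p = 0.0199), and the dimmer DNAJB6 probe (NM_005494) had 0.32 ± 0.09 (0.0266), against 0.03 and 0.07 on the brighter ones. With the mean of the probes of a gene in place of the brightest, CCT3 stood at 0.36 and still passed.

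**Figure D3:**
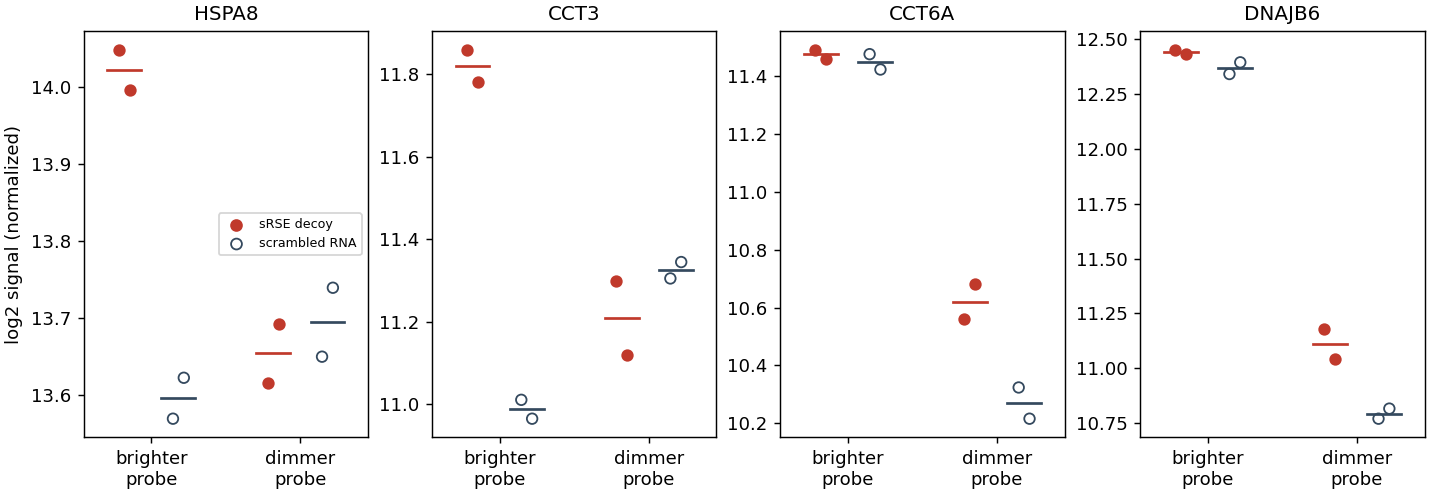
Log2 signal (vertical axis, scaled separately in each panel) on each array for the 4 chaperone genes with a pair of detected probes, with a line at each group's mean (n = 2 arrays, filled sRSE decoy, open scrambled RNA). The groups lie well apart on the brighter probe of HSPA8 and CCT3 and on the dimmer probe of CCT6A and DNAJB6. They are apart by a small gap on the brighter DNAJB6 probe (0.037) and the dimmer CCT3 probe (0.006).

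Among J-domain co-chaperones, 20 genes were tested, of which 2 were called higher, 8 lower and 10 did not pass (limma). That is 50% called, beside 44.5% of all genes, of which 21.2% were higher and 23.3% lower. DNAJB1, the HSF1-regulated partner of HSP70 in the cytosol, read 10.60 and 10.55 with the decoy, against 10.17 and 9.98 with scrambled RNA. It was 1.41-fold higher (0.50 ± 0.09, limma adjusted p = 0.00527), in the opposite direction to HSPA1A and HSPA1B. DNAJC1, a J-protein of the endoplasmic reticulum membrane, read 8.31 and 8.40 with the decoy, against 7.97 and 7.98 with scrambled RNA, and was 1.30-fold higher (0.38 ± 0.08, limma adjusted p = 0.00924). DNAJB1 did not pass without sRSE decoy replicate 1 (0.48, limma adjusted p = 0.0529), nor DNAJC1 without sRSE decoy replicate 2 (0.33, 0.0721).

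All 3 DNAJA genes tested had negative differences. DNAJA1, the major type A partner of cytosolic HSP70, read 12.46 and 12.61 with the decoy, against 12.92 and 12.90 with scrambled RNA, and was 1.30-fold lower (-0.38 ± 0.09, limma adjusted p = 0.0124). DNAJA3, the mitochondrial J-protein TID1, read 11.08 and 11.04 with the decoy, against 11.46 and 11.36 with scrambled RNA, and was 1.28-fold lower (-0.35 ± 0.08, limma adjusted p = 0.0131). In both genes the decoy arrays lay below the scrambled RNA arrays. DNAJA2, the constitutive relative of DNAJA1, did not pass at -0.18 ± 0.08 (limma adjusted p = 0.105), though its groups did not overlap either. The DNAJA1 call ended without sRSE decoy replicate 1 (-0.30), and that of DNAJA3 without sRSE decoy replicate 1 (-0.37), sRSE decoy replicate 2 (-0.33) or scrambled RNA replicate 1 (-0.30).

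The other 6 J-domain genes called lower were DNAJB11, DNAJB12, DNAJC15, DNAJC24, DNAJC25 and DNAJC27. DNAJC25, a J-protein with membrane-spanning segments, read 7.89 and 7.89 with the decoy, against 8.72 and 8.68 with scrambled RNA. It was 1.75-fold lower (-0.81 ± 0.08, limma adjusted p = 0.00078), the lowest difference of the 43. Its locus overlaps the read-through gene DNAJC25-GNG10, which the probe may also read. DNAJC15, which takes part in protein import at the mitochondrial inner membrane, read 9.29 and 9.01 with the decoy, against 9.82 and 9.84 with scrambled RNA, and was 1.61-fold lower (-0.68 ± 0.11, limma adjusted p = 0.00271). These 2 genes passed under every alternative, between -0.83 and -0.46 for DNAJC25 and between -0.82 and -0.43 for DNAJC15.

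DNAJB11, a partner of the endoplasmic reticulum HSP70, read 11.60 and 11.54 with the decoy, against 11.97 and 11.86 with scrambled RNA (-0.35 ± 0.09, limma adjusted p = 0.0145). DNAJB12, an endoplasmic reticulum membrane protein of protein quality control, read 7.36 and 7.56 with the decoy, against 7.84 and 7.79 with scrambled RNA (-0.35 ± 0.10, limma adjusted p = 0.0208). Both genes had lower signals on both decoy arrays. DNAJB12 has a second accession (NM_017626) with no linked probe, at percentile 95.6 of the authors' deposited table, where the linked one (NM_001002762) stands at 4.9. DNAJC24, which serves in the synthesis of diphthamide on an elongation factor, was lower at -0.46 ± 0.09 (limma adjusted p = 0.00664) and DNAJC27, a Rab-like GTPase with a J domain, at -0.34 ± 0.11 (limma adjusted p = 0.0415). Each of these 4 calls ended without sRSE decoy replicate 1, at -0.38 for DNAJB11, -0.25 for DNAJB12, -0.45 for DNAJC24 and -0.25 for DNAJC27. DNAJB11 (-0.32), DNAJC24 (-0.47) and DNAJC27 (-0.44) also did not pass without sRSE decoy replicate 2, nor DNAJB11 (-0.29), DNAJB12 (-0.33) and DNAJC27 (-0.22) without scrambled RNA replicate 1. Median scaling ended the calls of DNAJB12 (-0.18), DNAJC24 (-0.29) and DNAJC27 (-0.17), scaling over commonly detected probes and the omission of the detection filter those of DNAJB12 (-0.26 and -0.35) and DNAJC27 (-0.25 and -0.34), and cyclic loess that of DNAJC27 (-0.33).

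The 10 J-domain genes that did not pass lay between -0.24 and 0.23 on the log2 scale, 7 above 0 and 3 below it. The largest was DNAJC7 (0.23 ± 0.08, limma adjusted p = 0.0531), which binds both HSP70 and HSP90 and read 10.29 and 10.32 with the decoy, against 10.10 and 10.05 with scrambled RNA. DNAJC7 passed as higher in 5 of 14 alternatives, cyclic loess (0.24) and the authors' normalized intensities (0.23) among them. The lowest was DNAJC17 (-0.24 ± 0.10), a J-protein of the splicing machinery, which passed only without scrambled RNA replicate 2 (-0.34). DNAJC2, the ribosome-associated zuotin homologue, DNAJC13 of endosomes, DNAJC14, DNAJC5 of secretory vesicles, the histone chaperone DNAJC9, DNAJC8, DNAJA2 and the brighter DNAJB6 probe made up the rest.

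Raw signals did not separate the groups in every gene called lower. All 10 genes called higher had raw signals that were higher on both decoy arrays than on both scrambled RNA arrays, as did 1374 of the 1374 genes called higher in all. Of the 12 called lower, 7 had raw signals that were lower on both decoy arrays (665 of the 1512 genes called lower in all), and in 5 the raw signals overlapped: DNAJB12, DNAJC24, DNAJC27, HSPB8 and HSPBAP1. DNAJB12, for instance, had raw signals of 248 and 256 with the decoy, against 258 and 233 with scrambled RNA. Among all genes, both decoy arrays had the higher raw signal in 3752 of 6480 and both had the lower in 704, and the part of this difference in brightness in the calls was not tested. Without normalization between arrays, a setting added after seeing the data, the median of all genes moved to 0.24, the chaperone genes were called higher in 17 cases and lower in 4, and all genes in 2586 and 246. The 4 still called lower were HSPA1A (-0.38), HSPA1B (-0.37), DNAJC15 (-0.43) and DNAJC25 (-0.46), while DNAJB12 and DNAJC27 turned to 0.03 and 0.04.

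**Figure D4:**
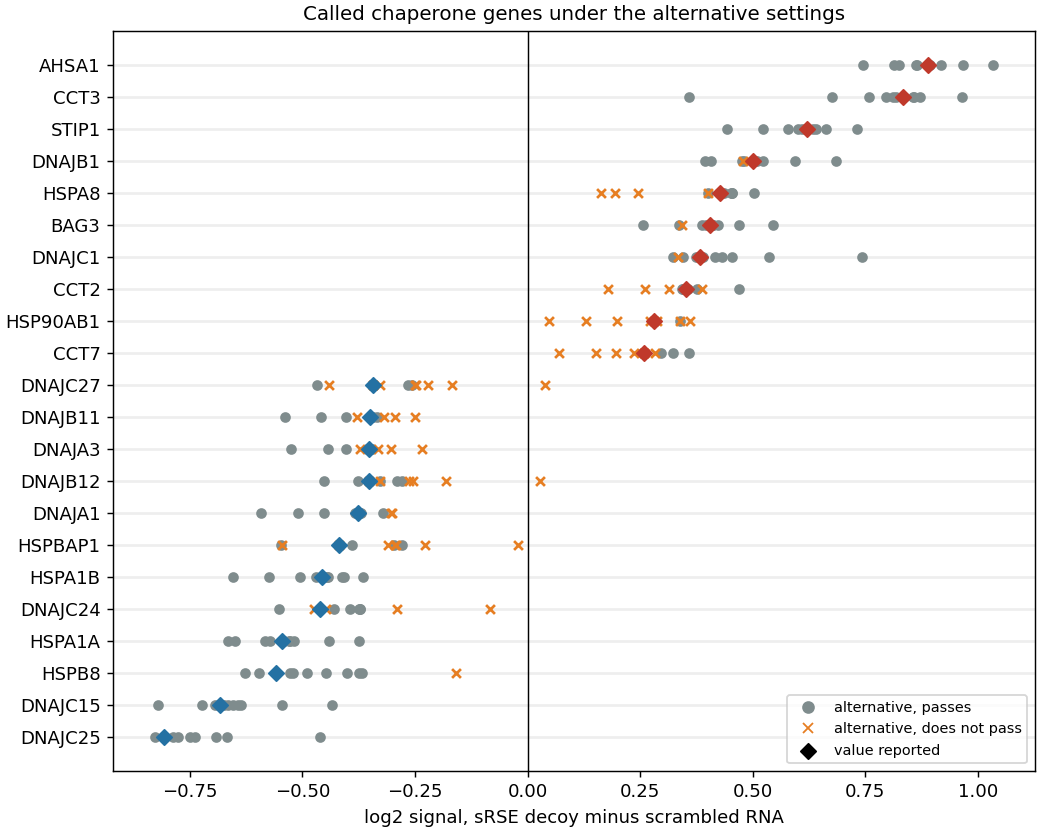
Difference in log2 signal (sRSE decoy minus scrambled RNA, horizontal axis) of the 22 called chaperone genes as reported (diamonds) and under each alternative setting (circles where the adjusted p stayed under 0.05, crosses where it did not). AHSA1, CCT3, STIP1, HSPA1A, HSPA1B, DNAJC15 and DNAJC25 have no crosses.

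Chaperone genes with no linked probe are known here only from the authors' deposited table, which holds 1 log ratio per accession, with no error. Its scale is not stated; the values match a log10 ratio, decoy over scrambled RNA, of transformed signals. Ranked among all 39747 accessions of the authors' deposited table, DNAJB4, a stress-regulated relative of DNAJB1, stood at percentile 1.37, and HSPE1, the co-chaperonin of mitochondria, at percentile 2.83. HSPD1, whose gene lies head to head with HSPE1 on chromosome 2, stood at percentile 39.2 in the authors' deposited table for its accession NM_002156, and its linked probe of another accession was above background on 0 arrays. The HSP70 genes with no linked probe were spread in the authors' deposited table, with HSPA13 at percentile 3.29, HSPA6 at 38.7, HSPA2 at 62.2 and HSPA4 at 92.1. HSPBP1, a nucleotide exchange factor of HSP70, stood at percentile 92.6 of the authors' deposited table, and a second accession of CCT7 (NM_006429) at 99.0. These ranks show where an accession lies and give no test of a difference.

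**Figure D5:**
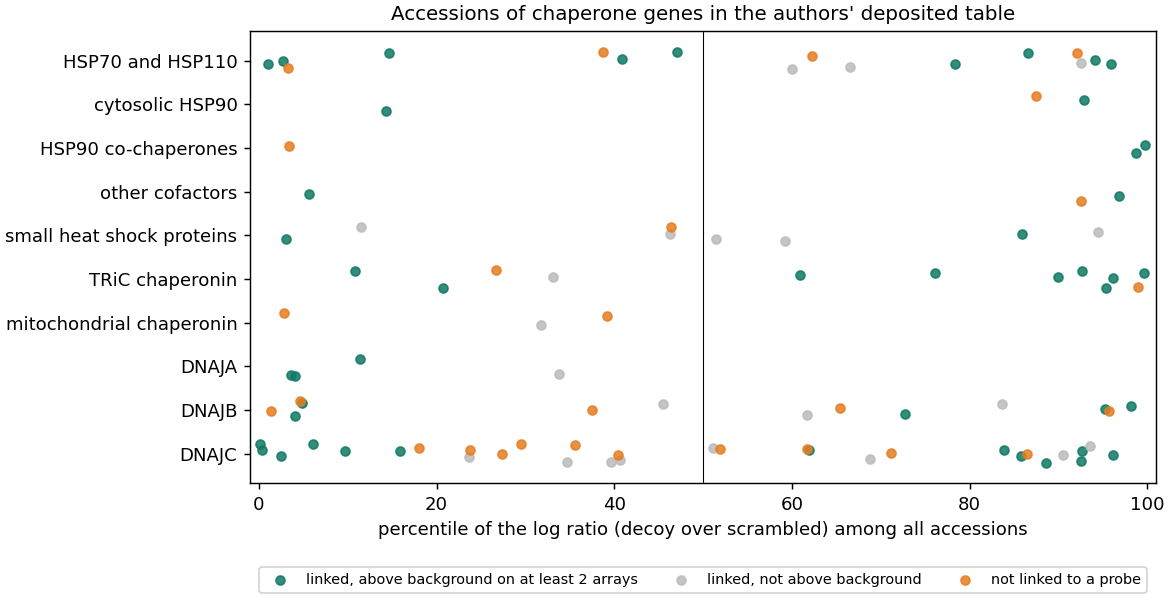
Percentile of each of the 96 chaperone accessions among all accessions of the authors' deposited table (horizontal axis, low to high ratio of sRSE decoy over scrambled RNA), by role, with small vertical offsets for legibility. Accessions without a linked probe (orange) are spread from DNAJB4 at 1.37 to CCT7 at 99.0, and DNAJA accessions all lie below 50.

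Genes that serve the same machinery but fall outside the symbol rule also went both ways. Of 48 such genes in 4 lists, 31 were tested, and 7 were higher, 5 lower and 19 did not pass (limma; 38.7% called, beside 44.5% of all genes). Of 5 heat shock regulators and targets tested, SERPINH1, the collagen chaperone HSP47, was higher at 0.73 ± 0.08 (limma adjusted p = 0.000858) and HMOX1, heme oxygenase, lower at -0.61 ± 0.14 (0.0125), while HSBP1 (0.16 ± 0.09) and FKBP4 (0.06 ± 0.09) did not pass. Of 14 further HSP90 and HSP70 cofactors, BAG6 was higher at 1.10 ± 0.12 (limma adjusted p = 0.000965) and SGTA at 0.36 ± 0.11 (0.0312), 2 proteins that act together on membrane proteins in the cytosol. The HSP90 partner SUGT1 was lower at -0.41 ± 0.09 (limma adjusted p = 0.00931) and ST13, which binds HSP70, at -0.50 ± 0.12 (0.0133).

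Of 7 prefoldin and chaperonin cofactors, which deliver to or regulate TRiC, PFDN1 was higher at 0.68 ± 0.09 (limma adjusted p = 0.00156), TXNDC9 lower at -0.80 ± 0.10 (0.00132) and PDCL lower at -0.30 ± 0.10 (0.038), and PFDN2 did not pass at 0.34 ± 0.13. Of 5 organelle chaperones and proteases tested, 3 were higher and 2 did not pass (limma). That is 60% called, beside 44.5% of all genes. The higher ones were the mitochondrial genes LONP1 (0.41 ± 0.09, limma adjusted p = 0.00761), TRAP1 (0.32 ± 0.08, 0.0146) and CLPP (0.29 ± 0.09, 0.0412). CLPX, also mitochondrial, did not pass at -0.13 ± 0.08 (limma adjusted p = 0.217), nor did HSP90B1 of the endoplasmic reticulum at -0.17 ± 0.08. Without sRSE decoy replicate 1 the calls of HMOX1 (-0.49), SGTA (0.46), PDCL (-0.39), LONP1 (0.43), TRAP1 (0.34) and CLPP (0.33) ended. Without sRSE decoy replicate 2 those of HMOX1 (-0.74), SUGT1 (-0.36), ST13 (-0.33), SGTA (0.27), PDCL (-0.22), LONP1 (0.39), TRAP1 (0.31) and CLPP (0.25) ended. SGTA also lost its call without scrambled RNA replicate 2 (0.25). PDCL (-0.24) and CLPP (0.20) lost theirs without scrambled RNA replicate 1. PFDN2 passed as higher in 8 of 14 alternatives. Among them were median scaling (0.53), the authors' normalized intensities (0.26) and leaving out scrambled RNA replicate 2 (0.49). Of the pathway genes called lower, TXNDC9 had lower raw signals on both decoy arrays, while those of HMOX1, SUGT1, ST13 and PDCL overlapped. Without normalization between arrays TXNDC9 still passed (-0.57). HMOX1 (-0.24), SUGT1 (-0.06) and ST13 (-0.25) did not, and PDCL turned to 0.08. Median scaling ended the calls of SUGT1 (-0.27) and PDCL (-0.13).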

How the data were processed

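Total RNA of 4 samples was biotin-labelled for Illumina beadchips, per the labels' protocols. The deposited raw intensities and their detection p-values, per the file headers, are not normalized; 3 detection cells that repeated a signal were filled from probes nearest in signal. The authors' normalized intensities come from lumi according to the labels (per the submitters' processing notes), and a deposited table gives 1 log ratio per accession. The probe annotation of the array was not used here: accession and probe were paired where the log ratio, recomputed from the authors' normalized intensities, agreed within 6e-10 with no other candidate. Of 39747 accessions 32468 were linked (81.7%), and 0.323% as many in tables shifted on purpose. Symbols come from RefSeq (GRCh38.p14); 16741 linked accessions have one.

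Raw intensities went through limma's neqc (limma 3.58.1, R 4.3.3; offset 16, quantile normalization, log2). Probes with a detection p under 0.01 on 2 or more arrays were kept, and the brightest probe stood for a gene. Groups were compared with lmFit and eBayes without covariates, Benjamini-Hochberg over 6480 genes, threshold 0.05. Where both arrays of a group were below background, a fold is a bound against the lowest signal above background. The linking and the test were checked on simulated data. The genes, lists and tests were chosen with earlier results of these data known. Named are all called chaperone genes, every tested one outside the DNAJ group, and 4 genes with the smallest p of each further list; other names were chosen after their values were seen.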

Additional observations from a re-analysis of the deposited data

How the results depend on the processing

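Of the 22 chaperone calls, 20 kept their sign in every setting run and 7 also kept their call; the 2 that turned are given in the report. Calls numbered 17 to 24 over the settings that keep all arrays, and 10 to 21 with 1 array left out. For all genes the count was 2886 and ran from 1364 to 2489 with 1 array left out (668 to 1216 higher, 696 to 1276 lower, and 992 lower without a detection filter), and for the further pathway genes it was 12, 7 without a detection filter and 5 to 13 with 1 array left out. The median log2 difference of the chaperone genes, 0.074, became -0.017 with median scaling, 0.12 with cyclic loess, -0.098 when scaled over commonly detected probes, 0.026 without a detection filter, 0.10 as the mean of probes, 0.19 without normalization between arrays (added after seeing the data), and 0.033 to 0.084 with 1 array left out, so its sign rests on the normalization. The median of all genes was 0.034 with median scaling, -0.048 when scaled over commonly detected probes and 0.24 without normalization between arrays. The chaperone median lay below that of all genes in these settings and above it in the others. All genes were called higher and lower in 1591 and 1005 cases with median scaling, and in 2586 and 246 without normalization, against 1374 and 1512 as reported. Over the settings that keep all arrays, calls among the further pathway genes ran from 7 without a detection filter to 18 with scaling over commonly detected probes.

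Values that changed sign belonged mostly to genes that did not pass. With median scaling they were DNAJB6 (-0.043), DNAJC8 (-0.093), HSPA9 (-0.017), HSPA7 (0.15), CCT8 (-0.041) and CCT6A (-0.072). With scaling over commonly detected probes they were DNAJB6 (-0.12), DNAJC9 (-0.034), DNAJC8 (-0.17), HSPA9 (-0.098), HSPA7 (0.066), CCT8 (-0.12), CCT6A (-0.15) and HSPB1 (-0.053). Without normalization between arrays they were DNAJB12 (0.027), DNAJC27 (0.039), DNAJC17 (0.13), DNAJC2 (0.21), HSPA7 (0.35), CCT4 (0.14) and PDCL (0.080). With 1 array left out FKBP4 ran from -0.014 to 0.13, HSPA7 from -0.20 to 0.15 and CCT6A from -0.00072 to 0.052. The causes were not tested. The titles number the replicates but do not state a pairing. Deviations of same-numbered arrays from their group means correlated at -0.011 over genes. No shared replicate effect was seen on this measure. With 2 arrays a group, it cannot settle whether there was one, or whether same-numbered samples were prepared together. With the replicate block, 21 chaperone genes and 2828 genes in all were called, CCT7 and DNAJC27 did not pass (limma adjusted p = 0.0582 and 0.0548) and HSPA14 did. Dim probes, near background, limit the calls of HSPB8, HSPBAP1 and HSPA7.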
